A study of Mus musculus with 4 samples.

Results

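The cells described here are the TCRγδ+ CD8α+ intraepithelial lymphocytes (IELs) of the mouse colon, in 1 library labelled Tcf7KO and 1 library labelled Tcf7WT. All cells of both matrices were taken except epithelial cells, defined as cells with at least 10 summed UMIs (unique molecular identifiers, the tags by which single mRNA molecules are counted) of Krt8, Krt19, Pigr and Epcam. This left 1491 Tcf7KO cells and 1870 Tcf7WT cells, 3361 of the 16787 cells in the series, after 20 Tcf7KO and 18 Tcf7WT cells were left out. The series also holds a TCRβ sort of the same tissue, with 13374 such cells in a Tcf7KO and a Tcf7WT library.

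The Tcf7KO group is 1 library of live CD3+ CD8α+ cells positive for TCRγ, which the sample titles name as TCRγδ, with the genotype label Tcf7KO. The Tcf7WT group is 1 library of the same sort with the genotype label Tcf7WT. Both libraries carry the same strain label, E8IcreTcf7fl/fl, so a floxed Tcf7 allele and the E8I Cre are written for both, and the genotype label alone tells them apart. E8I is an enhancer of the Cd8a locus, and Cre under it acts in cells of the CD8α lineage, so any loss of Tcf7 is tied to those cells and to the time at which they came to use that enhancer. The labels give neither the age nor the number of mice, nor whether mice were pooled. Sorted cells were encapsulated with a 10x Genomics 3′ kit (v2), which reads the 3′ end of polyadenylated transcripts.

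γδ IELs sit between the epithelial cells of the gut and carry a CD8αα homodimer, granzymes and receptors shared with natural killer (NK) cells. They kill or restrain infected and damaged epithelium and help to repair it. Tcf7 encodes TCF-1, a DNA-binding factor that pairs with β-catenin or with TLE repressors, and in αβ T cells it is known for keeping naive and memory cells from turning into effector cells.

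After the filter the libraries held 6740143 UMIs in Tcf7KO and 6093349 UMIs in Tcf7WT. The median cell had 4352 UMIs and 2067 genes in Tcf7KO, against 3190 UMIs and 1682.5 genes in Tcf7WT. Levels are therefore given as CPM, the share of a library's kept UMIs that a gene took on the usual CPM scale, and ratios as log2 of Tcf7KO over Tcf7WT. Each group was 1 library and nothing says how many animals it stands for, so no difference here has a replicate check and no test was made. Bracketed ranges are exact 95% intervals that cover counting error only. A gene is called 2-fold higher or lower from its ratio alone, and since each library lists its own genes, a gene listed in 1 library gets no ratio. The libraries shared 1 cell barcode.

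The sorted receptor was present in nearly every cell. Trdc, the constant gene of the δ chain, was seen in 98.9% of Tcf7KO and 95.9% of Tcf7WT cells, against 2.33% and 2.28% of the TCRβ Tcf7KO and Tcf7WT cells. Its level was 2031 CPM in Tcf7KO and 1978 CPM in Tcf7WT. Cd8b1, which encodes the β chain of the CD8αβ dimer of conventional T cells, had 3 UMIs in Tcf7KO and 33 UMIs in Tcf7WT, while Cd8a stood at 1863 and 1533 CPM. Transcripts of the αβ receptor constant genes were also abundant. Trbc2 was at 1159 CPM in Tcf7KO and 1154 CPM in Tcf7WT, in 94.5% and 86.5% of cells, so its UMIs alone do not mark αβ cells here. More αβ than γδ constant UMIs were held by 611 Tcf7KO and 723 Tcf7WT cells. Without them, 27 of 7774 genes were at least 2-fold higher and 63 lower. Whether αβ cells are among them was not tested. Of 14 markers of macrophages and dendritic cells, 10 were listed in neither library, among them Lyz2, Csf1r, Adgre1, C1qa and Flt3. Among the B cell markers, Cd79a, Ms4a1 and Pax5 were listed in neither. The listed remainder summed to 40.9 CPM in Tcf7KO and 65.6 CPM in Tcf7WT for the macrophage and dendritic cell markers, most of it Itgax, and to 233 CPM and 204 CPM for the B cell markers, most of it Ighm. Epithelial markers remained at a summed 255 CPM in Tcf7KO and 249.9 CPM in Tcf7WT, most of it Epcam, at 207 and 158 CPM. The other 13 were each lower in Tcf7KO, among them Krt8 at 9.50 and 19.2 CPM and Krt19 at 5.19 and 12.1 CPM, which the cell filter used and which are among the 80 lower genes counted below.

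Both libraries listed 8892 genes whose UMIs added up to 100 or more, and of these 34 (0.382%) were at least 2-fold higher in Tcf7KO and 80 (0.9%) at least 2-fold lower, together 1.28%. Where only the 3927 genes that reached 50 CPM in either library were counted, 1.2% lay past 2-fold in one or the other direction. The losses were also the deeper changes, with 21 genes at least 4-fold lower and 2 at least 4-fold higher. Most transcripts differed little: 94.4% of the genes were within 1.5-fold and the median log2 ratio was -0.05.

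**Figure D1:**
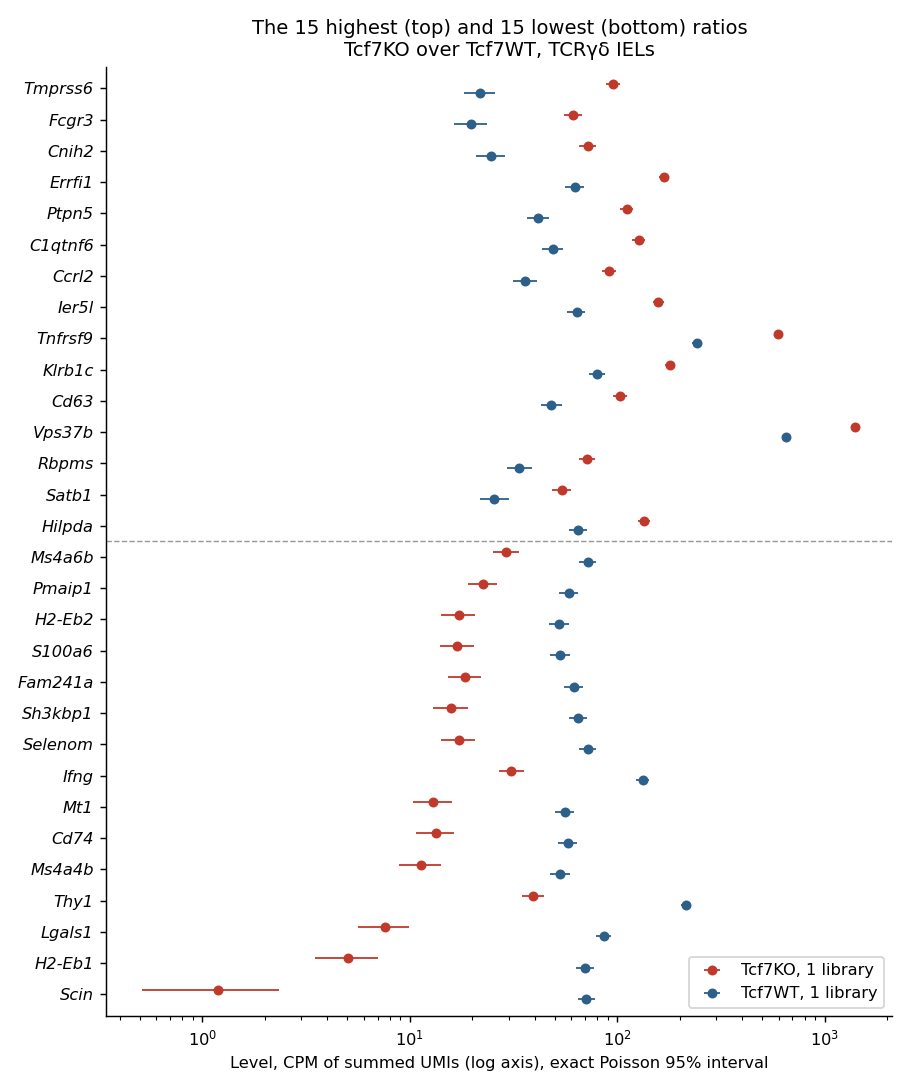
Levels of the 15 genes with the highest and the 15 with the lowest ratio among genes that reached 50 CPM in either library, as CPM on a log axis with exact Poisson 95% intervals, 1 Tcf7KO and 1 Tcf7WT library. Scin lies at 1.19 CPM in Tcf7KO and 71.1 CPM in Tcf7WT, and Tmprss6 at 95.3 CPM and 21.8 CPM.

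Tcf7 itself, on chromosome 11 (chr11:52252371-52283014, minus strand, GRCm38), had 104 UMIs in Tcf7KO and 283 UMIs in Tcf7WT. That is 15.4 CPM against 46.4 CPM, a log2 ratio of -1.59 (-1.93 to -1.26). The part of the gene that Cre removes is not given in the sources used here, and a 3′ tag can lie outside it, so the remaining UMIs check nothing. To compare shares of cells at equal depth, each cell was thinned at random to 1390 UMIs, which left out 10 Tcf7KO and 187 Tcf7WT cells. A Tcf7 UMI was then found in 2.03% (1.37 to 2.88) of Tcf7KO cells and 7.01% (5.84 to 8.34) of Tcf7WT cells, against 6.04% and 12.9% unthinned. Of the epithelial cells at that depth, 1 of 20 in Tcf7KO and 0 of 13 in Tcf7WT had one, at unthinned median depths of 22219 and 2558.5 UMIs. The Tcf7KO share lies below its epithelial share and is not read as expression, and the 0 of 13 epithelial Tcf7WT cells allow a background of up to 23.1%.

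In the Tcf7WT library, Tcf7 was mostly a transcript of cells with little or no granzyme A. Cells were divided at a Gzma level of 2000 CPM of their own UMIs into Gzma-high and Gzma-low cells, a range of level and not a cell type. Gzma-low cells held 262 of the 283 Tcf7 UMIs of the Tcf7WT library. Within Gzma-low cells Tcf7 stood at 40.8 CPM in Tcf7KO and 91.998 CPM in Tcf7WT, a log2 ratio of -1.17 (-1.62 to -0.75). Within Gzma-high cells it was 8.94 CPM in Tcf7KO and 6.47 CPM in Tcf7WT, with a ratio of 0.47 and an interval that held 0 (-0.30 to 1.28). The lower Tcf7 of the Tcf7KO library was thus not seen in Gzma-high cells, where both libraries held few Tcf7 UMIs.

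The MHC class II genes were the gene group furthest from equal. Class II molecules show peptides to CD4+ T cells, as a pair of an α and a β chain (H2-Aa with H2-Ab1, and H2-Eb1 or H2-Eb2 with its own α chain) that is escorted by the invariant chain Cd74 and loaded by H2-DM. Some T cells of rodents also hold class II transcripts. Of 11 genes in the list, 8 were in both libraries and had at least 50 UMIs over both libraries, and 6 of these were at least 2-fold lower in Tcf7KO and none higher, with a median log2 ratio of -1.87. Over all 10037 genes with at least 50 UMIs, 1.78% were lower and 0.648% higher by that margin, 2.43% together, with a median of -0.05.

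H2-Aa had 15 UMIs in Tcf7KO and 263 UMIs in Tcf7WT, 2.23 CPM against 43.2 CPM, a log2 ratio of -4.28 (-5.14 to -3.53), and 12 of the 15 came from 1 cell. H2-Eb1 had 5.04 CPM in Tcf7KO against 69.9 CPM in Tcf7WT (-3.79, -4.34 to -3.29), in 20 and 310 cells. H2-Ab1 had 5.19 CPM against 44.6 CPM (-3.10, -3.66 to -2.59). The transcripts were thus spread over many Tcf7WT cells and rare among Tcf7KO cells. Cd74 was at 13.4 CPM in Tcf7KO and 57.9 CPM in Tcf7WT, and 80 of its 90 Tcf7KO UMIs came from 1 cell. H2-Eb2, at 17.2 CPM against 52.7 CPM, and H2-DMb1, at 3.56 CPM against 10.3 CPM, had smaller ratios of -1.61 and -1.54. The class II transactivator Ciita did not share the difference, with 35 UMIs in Tcf7KO and 33 UMIs in Tcf7WT (-0.06, -0.79 to 0.67). Of the thinned cells, 0.41% (0.15 to 0.88) in Tcf7KO and 8.14% (6.88 to 9.55) in Tcf7WT had an H2-Eb1 UMI, and 0 of 20 and 0 of 13 epithelial cells, where a count of 0 allows shares of up to 15% and 23.1%. The class II transcripts are also made by macrophages, dendritic cells and B cells. Of their listed markers, Itgax was at 26.7 CPM in Tcf7KO and 53.3 CPM in Tcf7WT, and Ighm at 197 and 161 CPM. Since the rule for listing a gene is not known, an unlisted marker is not shown to be absent, and the part of such cells in the class II ratios was not tested.

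Class II promoters share a Y box, the site of the factor NF-Y, which the transactivator complex needs. The RefSeq promoters of GRCm38.p6 (250 bases before to 50 after a gene's start) are shown for H2-Aa, H2-Eb1 and H2-Eb2, which were past 2-fold and had an entry in the table, beside that of Gzma, the transcript with the largest gain in CPM. They lie at chr17:34287774-34288073 (minus strand) for H2-Aa, chr17:34305617-34305916 (plus) for H2-Eb1, chr17:34325425-34325724 (plus) for H2-Eb2 and chr13:113100932-113101231 (minus) for Gzma. Each is read 5′ to 3′ along the gene, and capitals mark the letters CTGATTGG.
H2-Aa: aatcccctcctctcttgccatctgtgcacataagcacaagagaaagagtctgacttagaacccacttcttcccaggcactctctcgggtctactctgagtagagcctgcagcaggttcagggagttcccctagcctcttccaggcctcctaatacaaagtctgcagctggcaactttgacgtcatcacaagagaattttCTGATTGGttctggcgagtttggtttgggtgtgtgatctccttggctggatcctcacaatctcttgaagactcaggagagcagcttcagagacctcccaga
H2-Eb1: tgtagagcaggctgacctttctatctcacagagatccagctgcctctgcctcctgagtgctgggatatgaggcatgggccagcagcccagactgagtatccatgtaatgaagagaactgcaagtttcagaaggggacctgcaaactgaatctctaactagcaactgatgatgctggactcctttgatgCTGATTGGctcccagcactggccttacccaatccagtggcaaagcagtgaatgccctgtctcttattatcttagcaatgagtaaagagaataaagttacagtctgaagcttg
H2-Eb2: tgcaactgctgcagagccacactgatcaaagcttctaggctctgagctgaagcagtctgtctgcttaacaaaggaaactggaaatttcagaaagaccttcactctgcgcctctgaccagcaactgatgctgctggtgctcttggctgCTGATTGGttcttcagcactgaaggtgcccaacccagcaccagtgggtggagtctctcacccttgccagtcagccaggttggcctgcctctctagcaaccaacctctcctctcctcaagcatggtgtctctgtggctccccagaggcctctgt
Gzma: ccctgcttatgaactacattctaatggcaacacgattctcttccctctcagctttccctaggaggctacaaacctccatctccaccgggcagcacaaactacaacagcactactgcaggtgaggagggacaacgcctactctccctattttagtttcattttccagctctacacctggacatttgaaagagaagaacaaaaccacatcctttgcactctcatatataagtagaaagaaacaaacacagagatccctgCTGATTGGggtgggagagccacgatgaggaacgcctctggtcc
All 4 hold CTGATTGG once, on the strand of the gene. Searched on both strands, these letters are in 4.10% of all 32851 promoters of the table and in 6.79% of the 6911 measured genes with a promoter. Of 4 class II genes with at least 100 UMIs and a promoter entry, 3 held them, and the fourth, H2-DMa, did not. They were in 4 of 62 genes at least 2-fold lower and in 1 of 22 genes at least 2-fold higher. The letters CTTTGAT, a form of the TCF-1 site, were in 3.73% of all promoters, in those of H2-Eb1 and H2-Eb2 but not of H2-Aa or Gzma, and in 3 of the 62 lower and 1 of the 22 higher genes. Each match describes letters in a window, not a bound site.

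Scin had the lowest ratio of all named genes. It encodes scinderin, a calcium-dependent protein that severs actin filaments during secretion. It was found as 8 UMIs in 6 Tcf7KO cells and 433 UMIs in 254 Tcf7WT cells, 1.19 CPM against 71.1 CPM (-5.90, -7.12 to -4.91). In Tcf7WT, 398 of these UMIs were in Gzma-high cells. No other actin-severing or capping gene shared this: of 12 measured, 1 was 2-fold lower and none higher, with a median of -0.03, and Capg, a capping protein, had 155.6 CPM in Tcf7KO against 102 CPM in Tcf7WT (0.61).

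Thy1 and a few genes of receptor signalling close to the membrane were lower. Thy1, a GPI-anchored surface protein of mouse T cells, was at 39.2 CPM in Tcf7KO and 215 CPM in Tcf7WT (-2.46, -2.65 to -2.27). A Thy1 UMI was seen in 4.79% (3.76 to 6.01) of thinned Tcf7KO cells and 22.1% (20.1 to 24.2) of thinned Tcf7WT cells, 9.32% and 34.9% unthinned, and in none of the epithelial cells. Of 24 measured genes of proximal T cell receptor signalling, 4 were 2-fold lower and none higher, with a median of -0.11. The 4 were Cd6, Themis, Sit1 and Lat. Cd6, an adhesion receptor that modulates the synapse, was at 3.56 CPM in Tcf7KO against 21.8 CPM in Tcf7WT (-2.62). Among the Gzma-low cells its ratio was 0.81, with an interval that held 0 (-0.49 to 2.09). Themis, a scaffold of thymic selection, and Sit1, an inhibitory adaptor, each had a ratio of -1.59. Lat, the adaptor on which ZAP-70 builds the signalling complex, was at 41.99 CPM against 104 CPM (-1.31, -1.52 to -1.11). The kinases Lck and Zap70 differed little, with log2 ratios of 0.00 and 0.28, so the list did not move as one.

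The MS4A proteins, tetraspanning membrane proteins of lymphocytes, were lower in all 3 measured members. Ms4a4b was at 11.3 CPM in Tcf7KO and 53.01 CPM in Tcf7WT (-2.23, -2.61 to -1.87), Ms4a6b at 29.1 against 72.4 CPM (-1.32) and Ms4a6c at 3.26 against 10.3 CPM (-1.66). Of 14 S100, galectin and annexin genes, 2 were 2-fold lower and none higher, with a median of -0.06. Lgals1, which encodes galectin-1, a secreted lectin, was at 7.57 CPM in Tcf7KO and 86.0 CPM in Tcf7WT (-3.51, -3.95 to -3.09). S100a6, a calcium-binding protein, was at 16.9 against 53.2 CPM (-1.65), and this ratio depends on the epithelial filter: with epithelial cells kept it was 0.996.

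**Figure D2:**
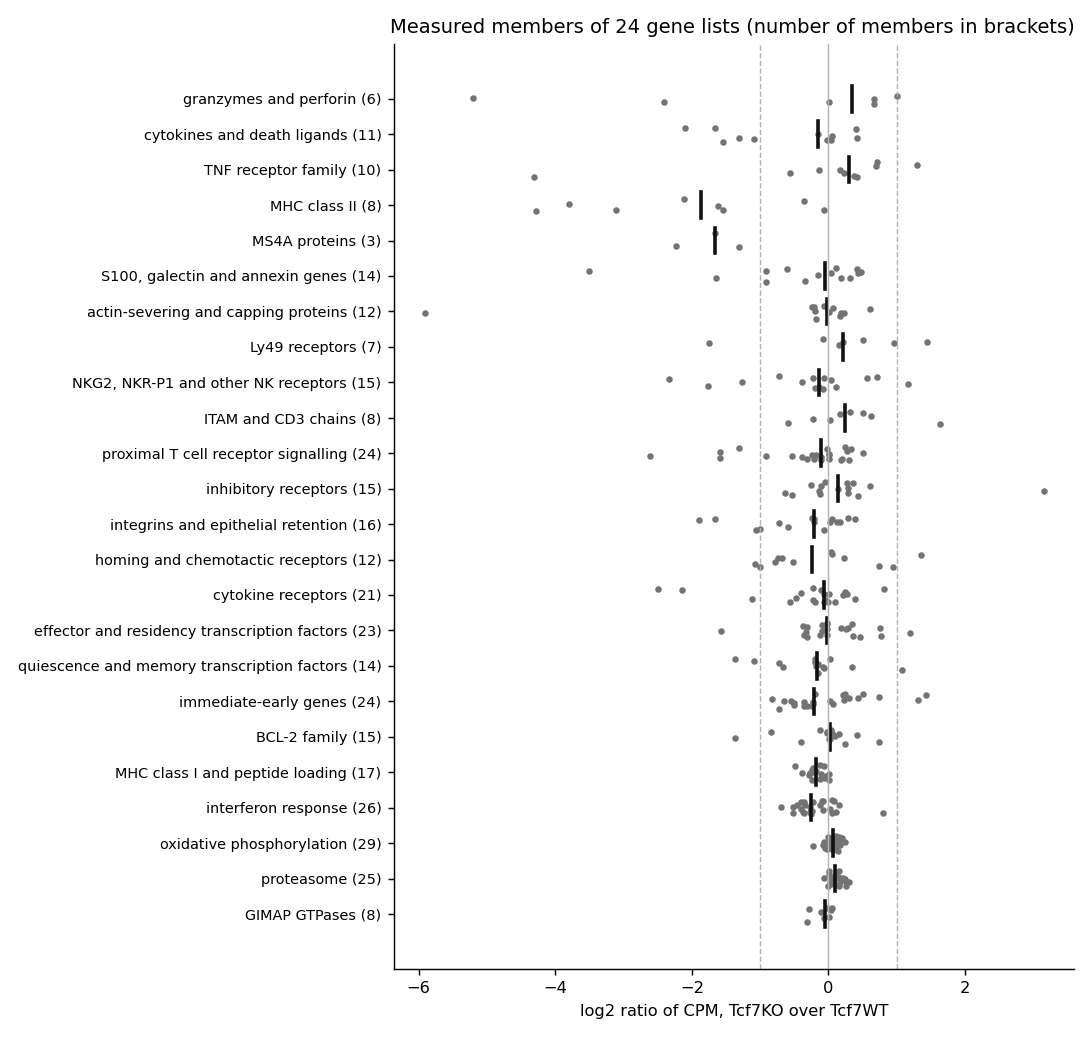
Each point is the log2 ratio of CPM, Tcf7KO over Tcf7WT, of 1 measured gene in 24 gene lists. Black bars are list medians and dashed lines mark 2-fold. The MHC class II and MS4A medians lie at -1.87 and -1.66, while those of oxidative phosphorylation, the proteasome and the GIMAP GTPases lie at 0.07, 0.09 and -0.04.

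The granule genes of the IEL moved apart from each other. Gzma, a trypsin-like granule protease, was the most abundant gene with a large gain, 20174 CPM in Tcf7KO against 12683 CPM in Tcf7WT (0.67, 0.66 to 0.68). Gzmb, the protease that cleaves caspases in target cells, was at 8324 CPM against 5245 CPM (0.67, 0.65 to 0.69). Gzmc, a further granzyme of strongly activated killer cells, was at 93.6 CPM against 46.8 CPM (1.001, 0.80 to 1.21). These 3 were higher in Tcf7KO, but the Gzmc ratio was 0.66 among Gzma-high and 0.58 among Gzma-low cells, 2-fold in neither. Gzmk, the granzyme of memory-like CD8+ T cells, was lower, with 6 UMIs in Tcf7KO and 200 UMIs in Tcf7WT (-5.20, -6.67 to -4.06). Gzmf had 14 UMIs in Tcf7KO and 67 UMIs in Tcf7WT (-2.40), of which 9 and 62 came from 1 cell each, and without those cells the ratio was -0.15. Prf1, the pore-forming protein that lets granzymes in, was at 22.1 CPM in Tcf7KO and 21.99 CPM in Tcf7WT. Of 15 genes of the granule matrix and its serpin inhibitors none passed 2-fold either way, and the largest ratio was 0.75 for Serpinb6b.

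Of 11 measured cytokines and death ligands, 5 were 2-fold lower and none 2-fold higher, with a median of -0.16 that was 0.17 among Gzma-high cells. Ifng, the type 1 cytokine interferon-γ, was at 30.9 CPM in Tcf7KO and 133 CPM in Tcf7WT (-2.11, -2.33 to -1.88), in 94 and 284 cells. Tnf was at 4.90 against 15.4 CPM (-1.66), Lta, encoding lymphotoxin-α, at 2.52 against 7.39 CPM (-1.55), and Tnfsf14, encoding LIGHT, at 4.15 against 10.3 CPM (-1.32). Csf2, the growth factor GM-CSF, was at 10.5 against 22.3 CPM (-1.08). Fasl, the ligand of the death receptor Fas, was at 212 CPM in Tcf7KO and 159.7 CPM in Tcf7WT (0.41), and Tgfb1, encoding TGF-β1, at 185 against 139.8 CPM (0.40). The chemokines stayed close, with none of 5 past 2-fold. Ccl5, the most abundant of them, was at 24553 CPM in Tcf7KO and 24192 CPM in Tcf7WT, and Xcl1, which draws cross-presenting dendritic cells, at 2005 CPM against 1684 CPM.

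Receptors of the TNF family differed in opposite directions. Fas, the death receptor, had 8 UMIs in Tcf7KO and 144 UMIs in Tcf7WT (-4.32, -5.55 to -3.30). Tnfrsf9, the costimulatory receptor 4-1BB that T cells gain on activation, was at 596 CPM in Tcf7KO and 242 CPM in Tcf7WT (1.299, 1.21 to 1.39). Of the thinned cells 47.3% (44.7 to 49.9) in Tcf7KO and 22.6% (20.7 to 24.7) in Tcf7WT had a Tnfrsf9 UMI, and none of the epithelial cells. The other 8 measured members were within 2-fold, with log2 ratios of -0.56 to 0.71.

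NK receptors also went both ways. Of 15 measured genes of the NKG2, NKR-P1 and other groups, 3 were 2-fold lower and 1 higher, with a median of -0.14. Klrk1, which encodes the stress-ligand receptor NKG2D, was at 7.42 CPM in Tcf7KO and 37.6 CPM in Tcf7WT (-2.34, -2.81 to -1.89). Cd160, a GPI-anchored receptor for the TNF receptor family member HVEM and typical of IELs, was at 252 against 605 CPM (-1.26, -1.35 to -1.18). Klrg1 had 15 and 46 UMIs (-1.76). Klrb1c, the receptor NK1.1, was higher, at 181 CPM in Tcf7KO and 80.2 CPM in Tcf7WT (1.17, 1.02 to 1.32). Among the Ly49 receptors, which bind MHC class I, Klra5 was the most abundant at 789 CPM in Tcf7KO and 408 CPM in Tcf7WT (0.95), and a Klra5 UMI was found in 52.1% (49.5 to 54.6) and 26.3% (24.2 to 28.5) of thinned cells, against 0 of 20 and 1 of 13 epithelial cells. Of 7 measured Ly49 genes, Klra9 was 2-fold higher (1.44) and the pseudogene Klra13-ps 2-fold lower (-1.75). The Ly49, granzyme, NKR-P1, class II β chain and heat shock 70 genes have close copies, and how reads that match several copies were counted is not given in the sources used here.

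The signalling chains that such receptors use went both ways, with 6 of 8 measured ratios above 0. Tyrobp, the ITAM adaptor DAP12, was at 2408 CPM in Tcf7KO and 1571 CPM in Tcf7WT (0.62). Fcer1g, the ITAM chain FcRγ, was at 3064 against 2164 CPM (0.50). Fcgr3, the IgG receptor that signals through FcRγ, was at 61.1 CPM in Tcf7KO and 19.7 CPM in Tcf7WT (1.63, 1.34 to 1.94), and was the 1 gene of 8 in this list past 2-fold. Hcst, the adaptor DAP10 that serves NKG2D, was at 683 against 1033 CPM (-0.60). Cd247, the ζ chain, was at 159 CPM in Tcf7KO and 187 CPM in Tcf7WT (-0.23). Cd3e, Cd3g and Cd3d had log2 ratios of 0.32, 0.17 and 0.03.

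Receptors for homing and retention were lower in a subset. Of 12 measured chemotactic receptors, 2 were 2-fold lower and 1 higher, with a median of -0.24. Ccr9, the gut-homing receptor, was at 119 CPM in Tcf7KO and 250.4 CPM in Tcf7WT (-1.07, -1.20 to -0.95). Gpr132, a receptor of lipid-like and acid signals, was at 36.8 against 74.02 CPM (-1.01, or -0.96 with TMM or DESeq2 scaling). Ccrl2, a non-signalling chemerin receptor, was higher at 91.5 CPM in Tcf7KO against 35.9 CPM in Tcf7WT (1.35), and Cxcr6, the CXCL16 receptor of resident lymphocytes, stood at 338 against 176 CPM (0.94). Of 16 integrin and retention genes 3 were 2-fold lower and none higher. These were Itgal, the LFA-1 α chain, at 6.68 CPM in Tcf7KO and 24.8 CPM in Tcf7WT (-1.89), Itga2 (-1.65) and Itga4, the α4 chain of gut-homing α4β7, at 46.4 against 97.3 CPM (-1.07). Itgae, the αE chain CD103 that binds epithelial E-cadherin, was at 609 CPM in Tcf7KO and 587 CPM in Tcf7WT (0.05).

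Of 21 cytokine receptor genes, 3 were 2-fold lower in Tcf7KO and none higher, with a median of -0.07. Il7r, the survival receptor of naive and memory T cells, was at 3.41 CPM in Tcf7KO and 19.2 CPM in Tcf7WT (-2.49, -3.21 to -1.84), and Il2ra had 14 and 56 UMIs (-2.15). Il2rb, the chain shared by the IL-2 and IL-15 receptors, was at 683 CPM in Tcf7KO and 391 CPM in Tcf7WT (0.81, 0.73 to 0.88). Inhibitory receptors held 1 gene past 2-fold among 15: Pdcd1, encoding PD-1, had 49 UMIs in Tcf7KO and 5 UMIs in Tcf7WT (3.15, 1.83 to 4.83).

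Most transcription factors differed little. Of 14 quiescence and memory factors 2 were 2-fold lower and 1 higher, with a median of -0.17. Id3, an inhibitor of E proteins, was at 47.3 CPM in Tcf7KO and 101 CPM in Tcf7WT (-1.10), and Klf3, a Krüppel-like repressor, at 4.60 against 11.8 CPM (-1.36). Satb1, a chromatin organiser, was at 54.0 CPM in Tcf7KO and 25.6 CPM in Tcf7WT (1.08). Lef1, the closest relative of Tcf7, had 20 and 16 UMIs, too few for a ratio. Of 23 effector and residency factors 1 was higher, Maf (1.19), and 1 lower, Irf4 (-1.57), while Runx3, Tbx21 and Id2 lay between -0.10 and -0.02. None of 15 Wnt pathway genes and TCF cofactors passed 2-fold, and Axin2, a common target of β-catenin with TCF factors, had 68 UMIs in Tcf7KO and 83 UMIs in Tcf7WT (-0.43, -0.92 to 0.05).

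The genes of general cell function showed where the libraries were alike. None of 29 oxidative phosphorylation, 25 proteasome, 15 glycolysis, 8 GIMAP, 17 MHC class I and 26 interferon response genes passed 2-fold. Their medians were 0.07, 0.09, 0.04, -0.04, -0.19 and -0.25 in that order. Of 15 BCL-2 family genes 1 was lower, Pmaip1, encoding the death promoter NOXA, at 22.6 CPM in Tcf7KO and 58.4 CPM in Tcf7WT (-1.37), and Bcl2l11, encoding BIM, was at 273 against 163 CPM (0.74). Of 24 immediate-early genes 2 were higher, Errfi1, a feedback inhibitor of the EGF receptor, at 168 against 62.4 CPM (1.43) and Ier5l, at 158 against 63.7 CPM (1.31). Fos and Jun, which form the AP-1 factor, were at 1532 and 1751 CPM in Tcf7KO against 2542 and 2753 CPM in Tcf7WT (-0.73 and -0.65). Fos, Jun and heat shock genes such as Hspa1b, at 1464 CPM in Tcf7KO against 2128 CPM in Tcf7WT (-0.54), are known to respond to tissue digestion and sorting, and the part of cell handling in these ratios was not tested. Of 25 cell cycle genes 2 were 2-fold higher, Aurkb (1.14) and Birc5 (1.05), and 20 ratios were above 0, with a median of 0.37. That median changed sign when cells with at least 2 UMIs of cell cycle markers were left out. It also changed sign when cells were limited to 500 to 3500 genes, where Birc5 was at -0.56 (-1.83 to 0.66). Of the 78 Birc5 UMIs in Tcf7KO, 17 came from 1 cell.

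The remaining lists were small or held single genes past 2-fold. Of 5 measured growth and repair factors for epithelium 2 were higher, C1qtnf6 (1.37) and Vegfa, the angiogenic factor, with 50 UMIs in Tcf7KO and 8 UMIs in Tcf7WT (2.50, 1.41 to 3.79). All 3 measured genes of the IL-17 programme of γδ T cells passed 2-fold, but not in 1 direction: Tmem176b had 76 and 21 UMIs (1.71), Maf stood at 16.5 and 7.22 CPM (1.19), and Rora, the receptor RORα, had 45 and 117 UMIs (-1.52). Icos, a costimulatory receptor, had 19 UMIs in Tcf7KO and 55 UMIs in Tcf7WT (-1.68) and was the 1 of 7 in its list past 2-fold. Smad3, which carries TGF-β signals, had 27 and 51 UMIs (-1.06), the 1 of 12 in its list. Its ratio was 0.053 among the Gzma-low cells, with an interval that held 0 (-0.91 to 0.96). Slc4a7, a bicarbonate carrier, was at 25.4 against 51.2 CPM (-1.01, or -0.97 with TMM and -0.96 with DESeq2 scaling), the 1 of 16 solute carriers. None of 20 chaperones, 17 cholesterol and lipid genes, 4 sex-linked genes, 5 γδ receptor constant genes and 3 αβ receptor constant genes passed 2-fold. Thy1 was the 1 of 2 measured Thy1 and Ly6 genes past 2-fold, and Cd8a (0.28) the 1 measured coreceptor.

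Among genes that reached 50 CPM in either library the highest ratio was that of Tmprss6, a membrane serine protease known from hepatocytes, where it restrains hepcidin. It had 642 UMIs in Tcf7KO and 133 UMIs in Tcf7WT, 95.3 against 21.8 CPM (2.13, 1.85 to 2.41). It was found in 439 and 99 cells, and no cell held more than 6 of its UMIs. Cnih2, a cargo receptor of the secretory pathway known from glutamate receptors, was at 71.96 CPM in Tcf7KO against 24.6 CPM in Tcf7WT (1.55). Ptpn5, a tyrosine phosphatase that acts on MAP kinases and FYN, was at 111.3 against 41.7 CPM (1.42). C1qtnf6, a secreted C1q- and TNF-related protein, was at 127 against 48.9 CPM (1.37). Vps37b, a subunit of the ESCRT-I sorting complex, was at 1400.0 CPM in Tcf7KO and 652 CPM in Tcf7WT (1.10, 1.05 to 1.16), a large gain for an abundant transcript. Cd63, a tetraspanin of lytic granules and exosomes, was at 103 against 48.1 CPM (1.10), and Hilpda, a lipid droplet protein induced by hypoxia, at 135 against 64.7 CPM (1.07).

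The Tcf7KO library held more cells with a high Gzma level. The cells fell into a group with no or few Gzma UMIs and a group with many, with few between: 54 Tcf7KO and 56 Tcf7WT cells lay between 1000 and 4000 CPM. Gzma-high cells were 79.9% (77.8 to 81.9) of Tcf7KO cells, 1191 in number, and 54.2% (51.9 to 56.4) of Tcf7WT cells, 1013 in number. Cells without a Gzma UMI were 11.8% in Tcf7KO and 38.2% in Tcf7WT. Thinned to equal depth, 84.1% (82.1 to 85.9) of Tcf7KO and 58.9% (56.6 to 61.3) of Tcf7WT cells had a Gzma UMI, against 2 of 20 and 1 of 13 epithelial cells. Cells with a Thy1 UMI went the other way, so that Gzma-high cells without Thy1 were 73.3% (71.0 to 75.5) in Tcf7KO and 32.1% (30.0 to 34.3) in Tcf7WT.

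**Figure D3:**
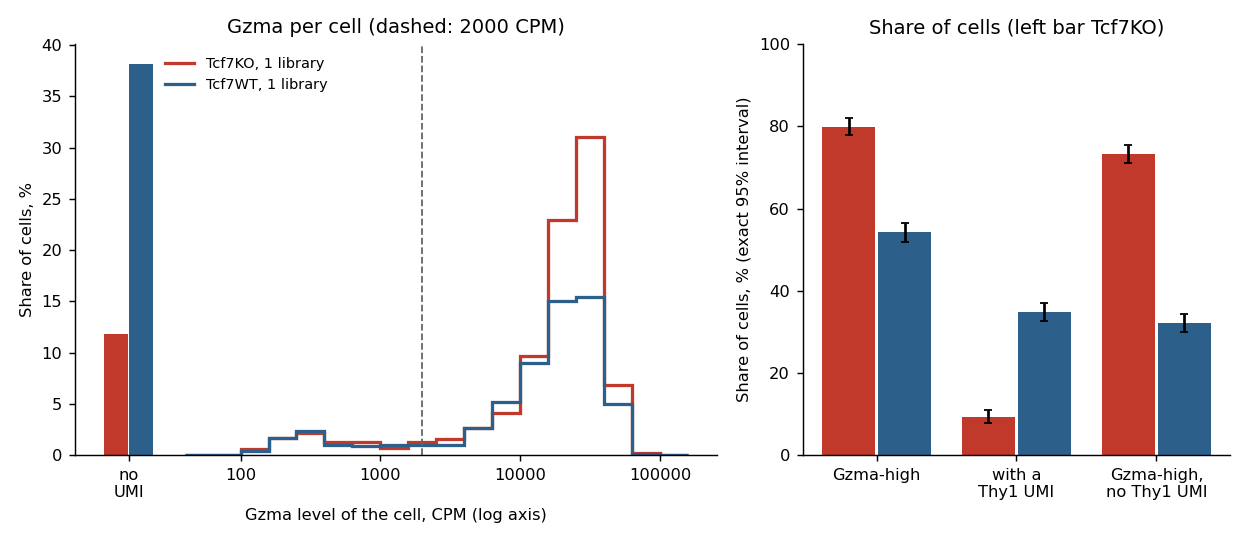
Left, share of cells by Gzma level of the cell in CPM on a log axis, with cells without a Gzma UMI as bars and the dashed line at 2000 CPM. Right, share of cells that are Gzma-high, that have a Thy1 UMI, and that are Gzma-high without a Thy1 UMI, with exact 95% intervals, Tcf7KO left of Tcf7WT. Gzma-high cells make up 79.9% of Tcf7KO and 54.2% of Tcf7WT cells.

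Within Gzma-high cells the level of Gzma hardly differed, at 25281 CPM in Tcf7KO and 23742 CPM in Tcf7WT (0.09), as follows in part from the division on Gzma. Gzmb, which the division did not use, was at 9273 CPM in Tcf7KO against 7945 CPM in Tcf7WT in Gzma-high cells (0.22), and at 4609 against 2169 CPM in Gzma-low cells (1.09). Among Gzma-high cells most of the genes past 2-fold over all cells were so again, and among Gzma-low cells most were not. These genes were called from the same cells, so their agreement within a class is partly built in and is no separate check. Gzma-high cells held 79.6% of the Tcf7KO UMIs and 53.3% of the Tcf7WT UMIs. Of the 7954 genes counted among Gzma-high cells, 67 were 2-fold higher and 74 lower. Of the 6209 counted among Gzma-low cells, 18 were higher and 22 lower. Of the 34 genes 2-fold higher over all cells, 32 of 34 measured were 2-fold higher among Gzma-high cells and 13 of 27 measured among Gzma-low cells. Of the 80 lower genes, 67 of 78 measured were 2-fold lower among Gzma-high cells and 27 of 61 among Gzma-low cells. The measured genes kept their sign among Gzma-low cells in 27 of 27 and 61 of 61 cases. Measured means at least 50 UMIs in that class over both libraries.

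Genes differed in the class that carried their ratio. Scin was at 1.49 CPM in Tcf7KO and 123 CPM in Tcf7WT among Gzma-high cells (-6.36), and among Gzma-low cells it had 0 UMIs in Tcf7KO and 35 UMIs in Tcf7WT. H2-Eb1 was at 3.17 against 93.7 CPM there (-4.89) and at 12.4 against 42.8 CPM among Gzma-low cells (-1.79). Thy1 was at 33.0 against 256 CPM among Gzma-high cells (-2.96) and at 63.4 against 168 CPM among Gzma-low cells (-1.41). H2-Eb1 and Thy1 thus had the lower ratio among cells with high Gzma. Lat was lower among Gzma-high cells (-1.76, -2.02 to -1.51) and closer among Gzma-low cells (-0.35). Klra5 was at 777 CPM in Tcf7KO and 202 CPM in Tcf7WT among Gzma-high cells (1.94) and at 840.1 against 643 CPM among Gzma-low cells (0.39), while Tnfrsf9 was higher in both (1.37 and 0.68). Cd160 was the converse, with a higher level in Gzma-low than in Gzma-high cells of both libraries. It was at 506 CPM in Tcf7KO and 985 CPM in Tcf7WT among Gzma-low cells (-0.96) and at 187 against 272 CPM among Gzma-high cells (-0.54), so neither class reached the 2-fold seen over all cells. Id3 and Csf2 turned round: among Gzma-high cells Id3 was at 30.0 CPM in Tcf7KO against 9.24 CPM in Tcf7WT (1.70, 1.13 to 2.31) and Csf2 at 9.32 against 3.70 CPM (1.33, 0.40 to 2.38), and among Gzma-low cells their ratios were -0.84 and -1.51. Cxcr6 was higher in both, by 1.801 among Gzma-low cells and 0.45 among Gzma-high cells.

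**Figure D4:**
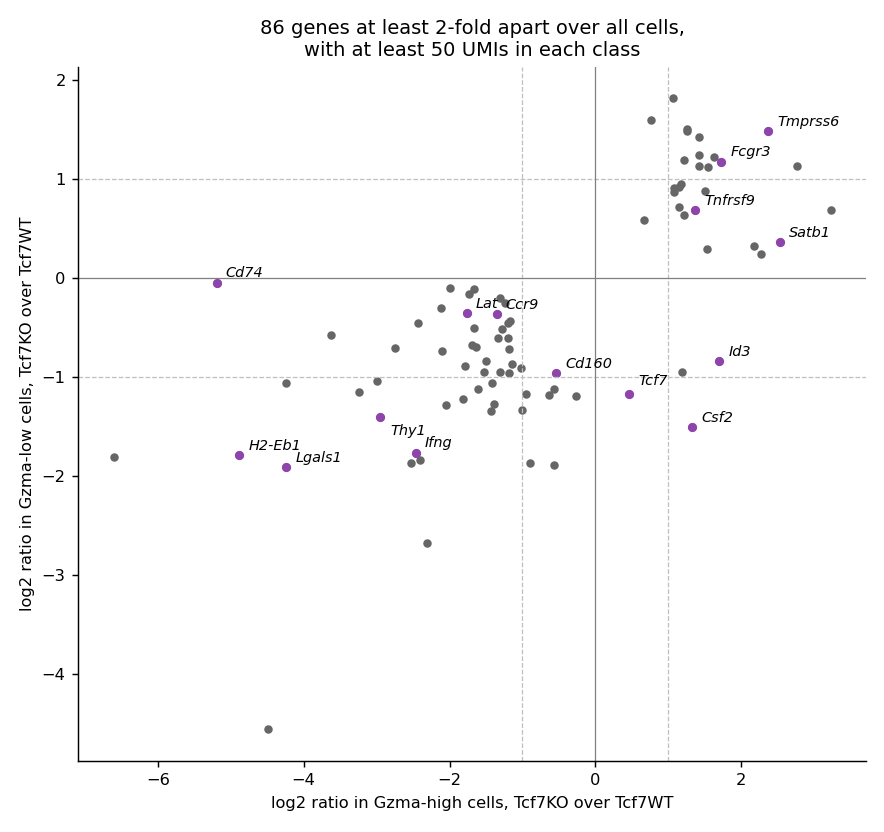
Log2 ratio of CPM, Tcf7KO over Tcf7WT, within Gzma-high cells (x axis) and within Gzma-low cells (y axis) for 86 genes at least 2-fold apart over all cells and with at least 50 UMIs and a finite ratio in each class. For 82 of the 86 both ratios have the same sign, and Tcf7, Id3 and Csf2 are among the 4 that differ.

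The variable segments of the δ chain gave a second way to set like cells beside each other. A cell was given a δ segment when that segment led its UMIs, which was so for few cells, since 1040 Tcf7KO and 1384 Tcf7WT cells had none or a tie. Trdv5 led in 9.86% of Tcf7KO and 7.65% of Tcf7WT cells, the Trav15-dv6 group in 13.5% and 9.84%, and Trdv2-2 in 4.49% and 6.36%. Gzma-high cells were the larger share in Tcf7KO for each: 81.6% against 60.1% for Trdv5, 77.6% against 63.9% for Trdv2-2 and 80.1% against 44.6% for Trav15-dv6. Thy1 was lower in Tcf7KO for each, at 25.1 against 226 CPM for Trdv5 (-3.17), 41.8 against 287 CPM for Trdv2-2 (-2.78) and 25.4 against 179 CPM for Trav15-dv6 (-2.82). The Ifng ratio was -3.19 for Trdv5, -4.45 for Trdv2-2 and -0.72 for Trav15-dv6, where 44 UMIs were found in Tcf7KO and 52 UMIs in Tcf7WT. Trdv5 led in only 147 Tcf7KO and 143 Tcf7WT cells and Trdv2-2 in 67 and 119. Single cells held up to 14 of the 208 Ifng UMIs of the Tcf7KO library. These ratios thus rest on few cells, and a difference between segments was not tested. Of the γ segments, Tcrg-V7 was seen in 10.4% (8.89 to 12.1) of Tcf7KO and 5.88% (4.86 to 7.05) of Tcf7WT cells. Tcrg-V1 was seen in 15.9% (14.1 to 17.9) and 24.8% (22.8 to 26.8). These shares and those of the leading δ segments were taken without thinning, and Tcf7KO cells were the deeper ones. As levels, Tcrg-V7 was at 24.3 CPM in Tcf7KO and 20.4 CPM in Tcf7WT, and Tcrg-V1 at 43.9 and 95.8 CPM. Tcrg-V1 was as common in the TCRβ sort, at 17.8% in Tcf7KO and 20.1% in Tcf7WT, so its UMIs do not name the receptor of a cell.

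**Figure D5:**
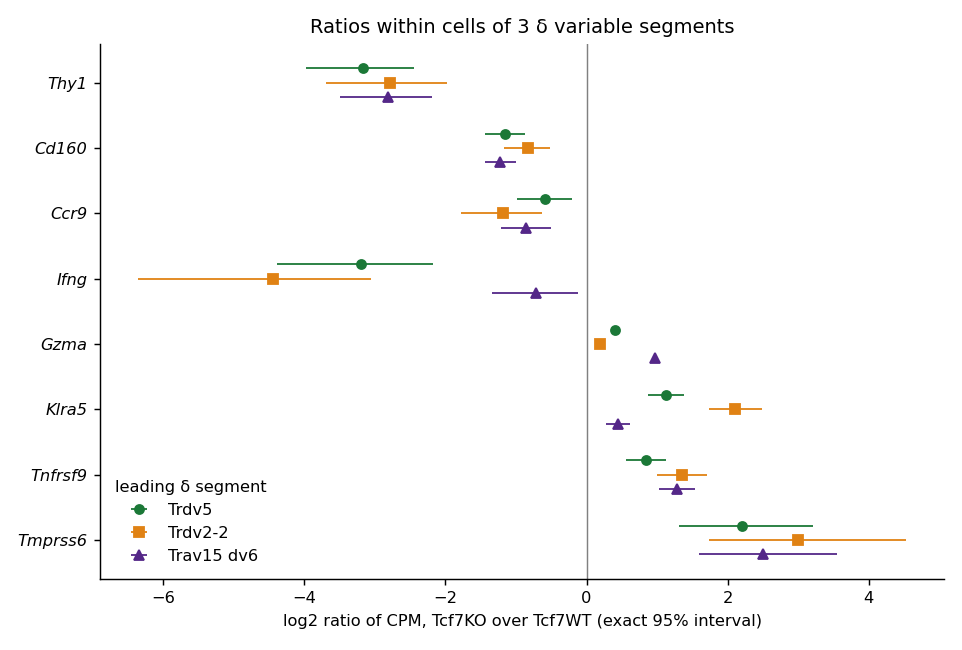
Log2 ratio of CPM, Tcf7KO over Tcf7WT, for 8 genes within cells led by each of 3 δ segments, with exact 95% intervals that cover counting error only. Thy1 lies at -3.17, -2.78 and -2.82, and Tmprss6 is higher in Tcf7KO for each segment.

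In the TCRβ sort of the same tissue, whose libraries are separate ones, a smaller share of genes was apart. In Tcf7KO 0.356% of 10664 genes were 2-fold higher and 0.375% lower, 0.731% together. Of the 4047 genes that reached 50 CPM in either library, 0.272% were past 2-fold. These libraries were deeper, with 18262777 UMIs in Tcf7KO and 20159687 UMIs in Tcf7WT, so the same UMI minimum admitted genes at lower CPM. Tcf7 itself differed less in the TCRβ sort, at 107.5 CPM in Tcf7KO and 148.8 CPM in Tcf7WT. Its log2 ratio was -0.47 (-0.55 to -0.39) in the TCRβ sort, against -1.59 in the TCRγδ sort. Of the 34 genes higher among TCRγδ cells, 33 were measured there and 12 were 2-fold higher too, 36.4% of those and 44.4% of the 27 TCRβ genes measured in both sorts. They include Tmprss6 (2.07), Ptpn5 (1.54), Gzmc (1.87), Fcgr3 (1.13), Tnfrsf9 (1.05), Errfi1 (1.09) and Ier5l (1.21). Of the 80 lower genes, 74 were measured there and 11 were 2-fold lower too, 14.9% of those and 84.6% of the 13 TCRβ genes measured in both sorts. They include H2-Eb1, at 2.74 CPM in the Tcf7KO library against 10.5 CPM in the Tcf7WT one (-1.94), H2-Ab1 (-2.21), Cd74 (-2.82) and Mt1 (-1.34). Thy1 was there at 241 CPM in Tcf7KO and 347 CPM in Tcf7WT (-0.53), Ifng at 51.7 against 64.2 CPM (-0.31) and Ccr9 at 109 against 98.3 CPM (0.15). Gzma stood at 4502 CPM in the TCRβ Tcf7KO library against 1666 CPM in the Tcf7WT one (1.43), and Gzmb at 2556 against 883 CPM (1.53). With 1 library per group, no difference between the sorts was tested.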

How the data were processed

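The deposited files hold, for each library, 1 matrix of whole UMI counts per gene and cell with gene symbols and barcodes. Seurat 3.0.0, GRCm38 and mm10 are named in the submitters' processing notes. The aligner, the counting rules and the rule by which a gene is listed are not given in the sources used here. The members and gene lists were chosen with earlier results of these data known.

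Counts were summed over non-epithelial cells and scaled to CPM (Python 3.11.15, NumPy 2.4.6, pandas 2.3.3, SciPy 1.17.1). Ratios have exact conditional, levels exact Poisson and shares Clopper-Pearson 95% intervals. All cover counting error only, and no test was made, since each group is 1 library. Total counts were 6740143 in Tcf7KO and 6093349 in Tcf7WT. At this depth the Tcf7 level had an interval of 12.6 to 18.7 CPM in Tcf7KO and 41.2 to 52.2 CPM in Tcf7WT.

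Genes with at least 100 UMIs over both libraries were counted, and members of lists needed 50. By rule the text could name Tcf7, the 15 highest and lowest ratios among genes reaching 50 CPM, the 10 largest gains and losses in CPM, and up to 6 members by ratio and 3 by level from each of 41 lists. Not all of these are described above. Left out were Selenom (-2.07), Sh3kbp1 (-2.04), Fam241a (-1.75) and Rbpms (1.08). Abundant genes were left out too, such as Rgs1 (49148 UMIs in Tcf7KO and 28564 in Tcf7WT), Actb (74172 and 87546) and Rn45s (43001 and 59175). Not ranked were sex-linked, haemoglobin, ribosomal and mitochondrial genes, gene models without a name, and segments of receptors and immunoglobulins. All receptor constant, coreceptor, class II, granzyme and chemokine genes and segments with 50 UMIs could be named too. Lck, Zap70, Tbx21, Id2, Lef1 and Cd3d fall outside this rule: they were picked once their values had been seen.

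For shares, cells were thinned to 1390 UMIs, the 10th percentile of Tcf7WT. Scrublet (scanpy 1.11.5) marked 51 Tcf7KO and 14 Tcf7WT cells as doublets, which were kept, and left out in an alternative. Other alternatives were scaling by TMM (edgeR 4.0.16) or by DESeq2 1.42.0, a total that omits receptor segments, immunoglobulins and granzymes, other cell filters, thinned or equally weighted cells, division by Gzma and Thy1, and other UMI minimums. The calculation was run on simulated counts with the same counting error that the intervals assume. This checks the arithmetic only, since variation between cells, animals or libraries was not simulated. Coordinates are GRCm38 with GENCODE M21, in which 394 of 398 genes were found.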

Additional observations from a re-analysis of the deposited data

Results flagged for a closer look

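Some genes were listed in only 1 of the TCRγδ libraries, and those with more than 50 UMIs lie outside the comparison of levels. Cd4, the coreceptor of helper T cells, had 70 UMIs in the Tcf7KO library, 1 in each of 70 cells, and 1810053B23Rik, a gene model, had 63 UMIs there. In the Tcf7WT library Zeb2, a repressor of terminally differentiated effector cells, had 109 UMIs in 100 cells, Havcr2, the inhibitory receptor TIM-3, had 87 UMIs in 75 cells, and Slco3a1, an organic anion transporter, had 58 UMIs in 54 cells. The rule by which a gene is listed is not known, so no level in the other library and no fold is given.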

How the results depend on the processing

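Each group was 1 library, so animal, handling and genotype cannot be told apart, and intervals cover counting error only. No paired analysis was possible because each group holds 1 library. Depth limits genes under 100 UMIs and the shares in epithelial cells.

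The 34 higher and 80 lower genes became 41 and 68 with TMM and 42 and 67 with DESeq2 size factors, which shift all log2 ratios by 0.047 and 0.048. With epithelial cells kept, 224 genes were higher. Higher genes numbered 67 among Gzma-high cells, 18 among Gzma-low cells and 53 among Gzma-high cells without Thy1. Lower genes numbered 22 among Gzma-low cells, 43 among cells without Thy1, 45 among Gzma-high cells without Thy1 and 43 after thinning, where fewer genes reach the minimum. Without a minimum 267 were higher and 776 lower, with 20 UMIs 136 and 366, and with 300 UMIs 22 and 34. The Tcf7 ratio was 0.47 among Gzma-high cells, 0.75 among those without Thy1, -1.17 among Gzma-low cells and -1.97 among all cells without Thy1.

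Tcf7 is not in the counts that follow, and it turned round among Gzma-high cells (0.47) and among those without Thy1 (0.75), with intervals that held 0. Of 1204 recomputed ratios of the 76 other named genes past 2-fold, 1040 stayed within the counting interval of the main ratio. That interval is wide at low counts. A further 156 kept their sign but lay outside it in either direction, and 8 turned round. Those were Birc5 (-0.56, cells with 500 to 3500 genes), Cd6 (0.81) and Smad3 (0.053) among Gzma-low cells, and S100a6 (0.996) with epithelial cells kept. The others were Csf2 (1.33) and Id3 (1.70) among Gzma-high cells, and Csf2 (0.63) and Id3 (1.65) among those without Thy1. For Birc5, Cd6, Smad3 and the Csf2 ratio of 0.63 the interval held 0. The cause was not tested. Gpr132 and Slc4a7 fell under 2-fold with TMM and with DESeq2 size factors, and Traj46 and Trbj2-7 with DESeq2 size factors alone. Without the cell with most of its UMIs, Gzmf was at -0.15. The medians of the GIMAP, actin, TGF-β pathway and effector and residency factor lists changed sign with both scalings. Among Gzma-high cells the medians of the cytokine, granzyme, growth and repair factor and inhibitory receptor lists did so. Those of the BCL-2, cholesterol and lipid, solute carrier and αβ constant gene lists also changed sign there. Further medians changed sign under other settings, among them those of the chemokine, chaperone, immediate-early and cell cycle lists.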
